A study of Mus musculus with 8 samples.

Results

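The immediate early genes *Fos*, *Fosb*, *Jun*, *Junb*, *Atf3*, *Egr1*, *Egr2*, *Egr3*, *Ier2* and *Ier3* were followed across tumor grafts. They were taken from the table by gene symbol and make up 10 of the 47729 genes in the table. Tumors were obtained by grafting B16-F0 melanoma cells or Lewis lung carcinoma (LLC) cells under the skin of C57BL/6J mice that were either wild type (WT) or knocked out for *Ccrl2* (KO), an atypical receptor that binds chemerin. The grafted cells kept an intact *Ccrl2* in all groups, so WT and KO describe the host. The 4 groups, B16 in WT hosts, B16 in KO hosts, LLC in WT hosts and LLC in KO hosts, had 2 libraries each, every library being a pool of 3 tumors. The sample labels place collection at day 5, whereas another day for B16 is given elsewhere in the study's text, so that tumor line and day cannot be told apart with certainty between B16 and LLC. Host sex and the age of the mice used for sequencing were not given by the labels.

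Immediate early genes are transcribed within minutes of a growth factor, cytokine or stress signal, without the need for new protein synthesis, and their messengers are short-lived. MAP kinases act on serum response factor and its ternary complex partners, and on CREB family factors, which already sit on these genes. Fos and Jun proteins are leucine zipper factors that pair to form AP-1, Atf3 is a stress-induced relative that pairs with Jun proteins, and Egr proteins are zinc finger factors that bind GC-rich sites. *Ier2* and *Ier3* are induced in the same way, but *Ier3* encodes a regulator of cell survival rather than a DNA-binding factor.

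Levels are given in RPM, the reads of a gene scaled to the same total in every library. All 10 genes passed the filter of 1 RPM in at least 2 libraries, as did 14706 genes in total. Estimated depth ranged from 17.59 to 30.84 M reads on genes, so that 3 reads corresponded to 0.0973 to 0.171 RPM, below the lowest value of any of these genes, 0.45 RPM for *Egr3*. In LLC, depth was 30.84 and 28.47 M in WT pools and 20.09 and 17.59 M in KO pools. Depth and host genotype therefore cannot be told apart in LLC. *Ccrl2* itself was found at 3.1 to 4.25 RPM in B16 and at 5.15 to 11.45 RPM in LLC pools, with overlapping hosts in LLC and both KO pools below the WT pools in B16. The summed level of 7 melanocyte markers was 14742 to 18173 RPM in B16 pools and 23.3 to 26.9 RPM in LLC pools. The first B16 WT pool held 692.55 RPM of skeletal muscle markers, against 2 to 4 RPM in the other pools. In the first and second LLC KO pools, erythroid markers summed to 35.75 and 355.25 RPM, and adipocyte markers to 2.6 and 51.95 RPM. Erythroid sums in B16 were 242.55 and 303.6 RPM in WT hosts, then 118.65 and 22.75 RPM in KO hosts. The 4 Y-linked genes *Ddx3y*, *Eif2s3y*, *Uty* and *Kdm5d* summed to 65.85 and 71.5 RPM in the LLC KO pools and to 0 in the other 6 libraries, so that in LLC the host genotype cannot be told apart from the sex of the mice or the stock of grafted cells.

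Start-site windows from RefSeq (GRCm38.p6) were found for 7 of the 10 genes, all but *Egr1*, *Egr3* and *Ier2*. Each window holds 250 bases before a start and 50 after it, so that sites further away were not searched. The windows of *Jun* and *Ier3* are shown because both genes differed between hosts in LLC tumors, in opposite directions. The *Jun* window lies at chr4:95052173-95052472 on the minus strand and the *Ier3* window at chr17:35821463-35821762 on the plus strand, and both are written 5′ to 3′ on the strand of the gene. Capitals mark, in *Jun*, the match to TGACNTCA, a site type bound by Jun and ATF factors, and in *Ier3* a match to the hypoxia-inducible factor core ACGTG followed by a match to the NF-kB site.
Jun: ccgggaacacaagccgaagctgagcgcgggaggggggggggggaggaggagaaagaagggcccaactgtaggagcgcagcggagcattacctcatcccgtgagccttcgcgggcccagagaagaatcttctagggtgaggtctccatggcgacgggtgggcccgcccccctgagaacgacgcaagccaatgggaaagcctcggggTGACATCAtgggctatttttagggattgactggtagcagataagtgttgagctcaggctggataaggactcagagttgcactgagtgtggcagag
Ier3: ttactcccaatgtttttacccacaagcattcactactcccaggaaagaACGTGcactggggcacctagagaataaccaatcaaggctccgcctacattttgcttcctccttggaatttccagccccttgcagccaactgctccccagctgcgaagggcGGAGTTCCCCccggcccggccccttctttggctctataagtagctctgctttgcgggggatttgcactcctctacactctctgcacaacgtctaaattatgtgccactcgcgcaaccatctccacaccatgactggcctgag
The *Jun* match lay at positions -45 to -38 from the start, and the *Ier3* matches at -202 to -198 and at -92 to -83. Both strands were searched. NF-kB matches also occurred in *Fos*, *Fosb* and *Egr2*, and ACGTG matches in *Egr2*, so that neither site type was particular to *Ier3*. Such matches were common, as 8.83% of the 32851 mouse windows held TGACNTCA, 19.6% held ACGTG and 8.46% held the NF-kB site. TGACNTCA was added after the *Jun* sequence had been seen. None of the 7 genes had the AP-1 letters TGANTCA in its windows, which 7.81% of all windows held. *Fosb* had a match to the Egr site GCGNGGGCG at -50 to -42, found in 5.55% of all windows. The serum response factor site (CArG box), present in 1.63% of windows, was found in 4 of the 5 windows of *Egr2*. These overlap in part and some share the same match, so that they do not hold 4 separate sites.

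Per kb of exon, which allows genes to be compared with each other, *Ier3* was the most abundant of the 10 genes in both tumors and *Egr3* the least. In B16 tumors, the mean level per length was 253 RPM per kb for *Ier3* (SD 16.9, n = 4), followed by *Junb* at 34.7 RPM per kb. *Ier2* (23.8 RPM per kb) and *Fos* (22.0 RPM per kb) had overlapping ranges, as did *Atf3* (15.9 RPM per kb) and *Jun* (14.3 RPM per kb), and *Egr2* (3.34 RPM per kb) and *Egr1* (3.09 RPM per kb). *Fosb* came next at 1.07 RPM per kb, and *Egr3* was at 0.190 RPM per kb. In LLC tumors, *Ier3* (133 RPM per kb, SD 62.8), *Junb* (71.0 RPM per kb) and *Jun* (50.3 RPM per kb) led, with ranges that overlapped from each to the next. *Jun* therefore ranked 3 in LLC and 6 in B16. In LLC, *Ier2* (21.9 to 28.4 RPM per kb) was above *Atf3* (mean 19.2 RPM per kb), whose range overlapped that of *Fos* (15.8 RPM per kb). *Egr1* followed at 7.08 RPM per kb, and the ranges of *Egr2* (2.58 RPM per kb), *Fosb* (1.73 RPM per kb) and *Egr3* (1.33 RPM per kb) overlapped from each to the next.

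**Figure D1:**
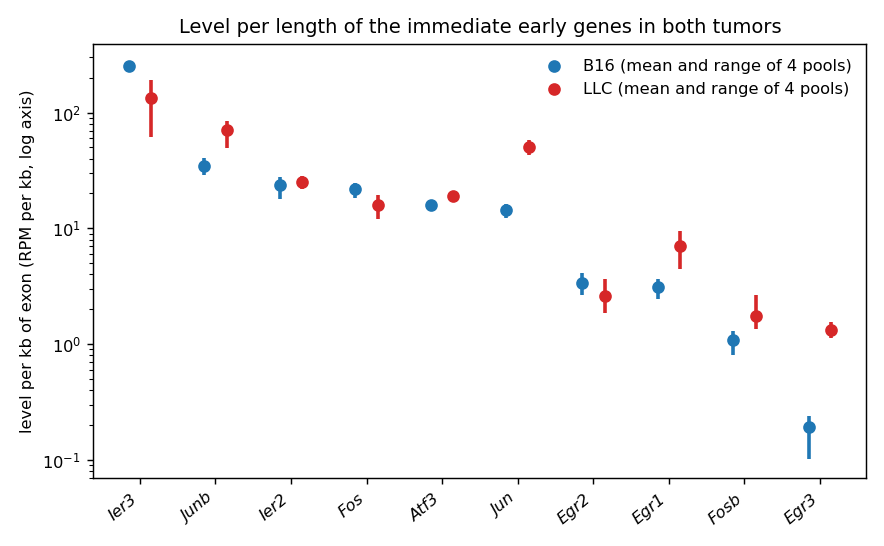
Level per kb of exon (RPM per kb, log axis) of the 10 genes in B16 and LLC tumors, ordered by their B16 mean, with points for the mean and lines for the range of 4 pools. *Ier3* is highest in both tumors, at 253 and 133 RPM per kb, and *Jun* goes from 14.3 in B16 to 50.3 in LLC.

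The first comparison asked how the tumors that developed in KO hosts differed from those in WT hosts, for LLC. *Ier3*, *Egr1* and *Junb* were higher in LLC tumors of KO hosts, by 2.30, 1.80 and 1.44 times, and *Jun* was lower, at 0.833 of its WT level. The other 6 genes did not pass the test. These 4 calls were made by limma, with Benjamini-Hochberg adjustment over all 14706 genes. In the same comparison, 15.1% of all genes were called higher and 23.1% lower, 38.3% together, and 4 of 10 is near that background. Of the called genes, 39.6% were higher, against 56.3% after scaling by trimmed means and 54.1% after scaling by medians of ratios, so that the balance of directions over all genes rests on the scaling. The median log2 difference was 0.22 over the 10 genes and -0.09 over all genes. As these are whole tumors, fewer cells of a type and less RNA per cell cannot be told apart.

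*Ier3* (chromosome 17, 35821684 to 35822923, GRCm38, plus strand), induced by NF-kB and many stresses, was at 112.45 and 69.8 RPM in LLC tumors of WT hosts and at 217.3 and 202.7 RPM in those of KO hosts. Both KO pools were above both WT pools, which themselves differed. Its mean went from 91.1 ± 30.2 to 210.0 ± 10.3 RPM (SD, n = 2), a log2 difference of 1.24 (SE 0.19, 95% interval 0.79 to 1.69, limma adjusted p = 0.00348). *Egr1* (chromosome 18, 34859823 to 34864984, plus strand), the best studied Egr factor, was at 25.35 and 20 RPM in WT hosts and at 39 and 42.7 RPM in KO hosts, again without overlap. Its log2 difference was 0.84 (SE 0.18, 95% interval 0.42 to 1.27, limma adjusted p = 0.0106). Its relatives *Egr2* (8, 8.35, then 6.3 and 12.4 RPM) and *Egr3* (5, 5.75, then 6.8 and 5.85 RPM) had log2 differences of 0.11 and 0.22 that did not pass. *Egr2* overlapped between hosts and *Egr3* did not.

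Among the AP-1 genes, *Junb* (chromosome 8, 84974484 to 84978718, minus strand), a Jun protein that can oppose Jun, was at 153.1 and 114.65 RPM in WT hosts and at 190.65 and 194.9 RPM in KO hosts. The groups did not overlap, and the log2 difference was 0.54 (SE 0.15, limma adjusted p = 0.0264). *Junb* overlaps *Prdx2* on the opposite strand, which was at 214 to 329 RPM in the 8 libraries, and the strand setting of the counting is not given in the sources used here. *Jun* (chromosome 4, 95049034 to 95052222, minus strand), a gene of 1 exon, was at 183.25 and 166.85 RPM in WT hosts and at 153.35 and 138.4 RPM in KO hosts. The KO pools lay under those of WT hosts, with a log2 difference of -0.26 (SE 0.09, limma adjusted p = 0.0456). *Jun* overlaps the antisense gene *Junos*, which was at 4.65 to 7.05 RPM in LLC.

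*Fos* (45.55 and 32 RPM in WT hosts, 43.15 and 28.35 RPM in KO hosts) overlapped between hosts, with a log2 difference of -0.12. *Fosb* (8.8 and 9.6 RPM, then 16.45 and 8.35 RPM) also overlapped, 1 KO pool being well above the other 3. *Atf3* was at 36.85 and 39.35 RPM in WT hosts and at 44 and 44.9 RPM in KO hosts, and *Ier2*, which encodes a small nuclear protein, was at 43.25 and 41.6 RPM, then at 34.2 and 33.3 RPM. Neither gene overlapped between hosts, but their log2 differences of 0.22 and -0.33 missed the threshold (limma adjusted p = 0.0819 and 0.0757). In all, 5 of the 10 genes had both KO pools above both WT pools, an order found in 27.6% of all genes, and 2 had both below, found in 42% of all genes.

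The 4 calls were not equally firm. *Ier3* passed in every alternative tried, with an adjusted p of at most 0.0477. *Jun* no longer passed with other scalings of the libraries (log2 difference -0.16, adjusted p = 0.151 with trimmed means) or without any one library other than the second LLC WT pool (adjusted p up to 0.236). *Jun* and *Junb* were both lost without the filter on low values (limma adjusted p = 0.0840 and 0.0774) and with each tumor fitted alone (0.114 and 0.0829). Conversely, *Atf3* passed with other scalings (0.32, adjusted p = 0.0268 with trimmed means), and *Ier2* passed without the first B16 KO pool (adjusted p = 0.0246) or the second (0.0238). *Junb* was also lost without the second LLC WT pool (adjusted p = 0.0909), the first LLC KO pool (0.0986) or the second LLC KO pool (0.104). *Egr1* was lost without the second LLC KO pool (adjusted p = 0.0608). Without that pool, 1 gene was called in place of 4, and without the first LLC KO pool, 2.

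**Figure D2:**
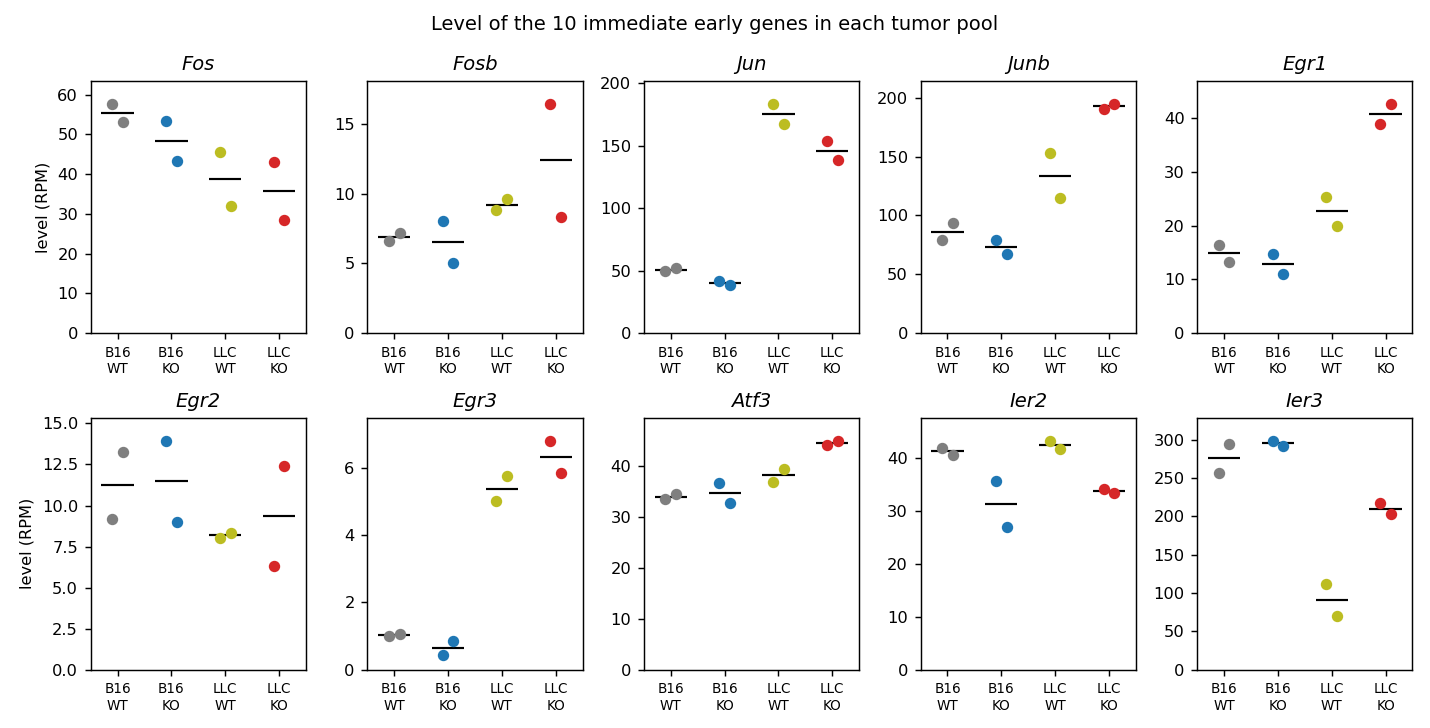
Level (RPM, linear axis from 0) of each of the 10 genes in each tumor pool, by tumor and host, with points for single pools and lines for the mean of 2. For *Ier3*, the LLC KO pools at 217.3 and 202.7 RPM lie above the LLC WT pools at 112.45 and 69.8 RPM.

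In B16 tumors, no gene was called between hosts by limma (0% of those tested), and at most 11 genes were called with 1 library left out. At an unadjusted p below 0.05 there were 1442 genes, 9.81% of those tested, among them *Jun* and *Ier2*. *Jun* was at 49.4 and 52.15 RPM in WT hosts and at 42 and 38.8 RPM in KO hosts, a log2 difference of -0.33 (SE 0.09, limma adjusted p = 0.393). *Ier2* was at 41.9 and 40.55 RPM, then at 35.7 and 27 RPM, a log2 difference of -0.40 (SE 0.13, limma adjusted p = 0.440). Both genes had their KO pools below their WT pools, as did *Egr3* at its low level (1 and 1.05 RPM, then 0.45 and 0.85 RPM). This order was found in 31.1% of all genes, and 0 of the 10 genes had the reverse order, found in 16.1% of all genes. *Ier3* was at 257.35 and 294.65 RPM in WT hosts and at 298.95 and 291.7 RPM in KO hosts, with overlap and a log2 difference of 0.10 (95% interval -0.35 to 0.55). *Egr1* (16.45 and 13.3 RPM, then 14.75 and 10.95 RPM) and *Junb* (78.75 and 94 RPM, then 79.2 and 67.1 RPM) overlapped too, with log2 differences of -0.21 and -0.24. *Fos*, *Fosb*, *Egr2* and *Atf3* lay between -0.20 and 0.03. The median log2 difference was -0.21 over the 10 genes and -0.05 over all genes. It was -0.35 over the 10 genes without the first B16 KO pool, and -0.03 without the second, when that over all genes was -0.05.

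**Figure D3:**
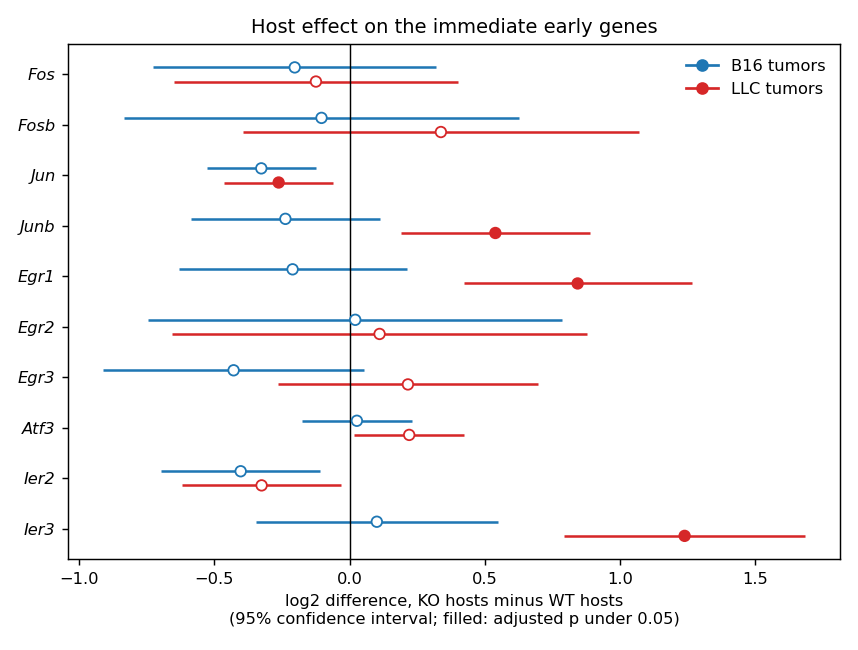
Log2 difference between KO and WT hosts for each gene in B16 (blue) and LLC (red) tumors, with 95% confidence intervals from limma and filled points for an adjusted p under 0.05. *Ier3*, *Egr1* and *Junb* lie at 1.24, 0.84 and 0.54 in LLC and at 0.10, -0.21 and -0.24 in B16, while *Jun* lies below 0 in both.

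Whether the host effect differed between the tumors was tested directly. As host genotype in LLC cannot be told apart from mouse sex or the stock of grafted cells, neither can this difference. For *Ier3*, *Egr1* and *Junb*, the effect in LLC exceeded that in B16 by 1.14 (SE 0.27, limma adjusted p = 0.0335), 1.05 (SE 0.26, adjusted p = 0.0352) and 0.78 (SE 0.21, adjusted p = 0.0474) on the log2 scale. Among all genes, 8.15% were called in this direction and 7.05% in the other, 15.2% together. The share of higher among called genes was 53.6%, and 64.6% with trimmed means. None of these 3 calls held without either B16 WT pool, either B16 KO pool or either LLC KO pool, and 1 held without the second LLC WT pool. For *Jun* and *Ier2*, whose host differences had a negative sign in both tumors but passed only for *Jun* in LLC, the difference was 0.06 (95% interval -0.22 to 0.35) and 0.08 (95% interval -0.34 to 0.49). Averaged over both tumors, on the log2 scale, *Jun* fell by 0.29 (SE 0.06, limma adjusted p = 0.0179), *Ier2* fell by 0.36 (SE 0.09, adjusted p = 0.0273) and *Ier3* rose by 0.67 (SE 0.14, adjusted p = 0.0169). The value for *Ier3* joins 1.24 in LLC and 0.10 in B16, so it does not describe a rise shared by both tumors. The limit on host genotype in LLC holds for this average over tumors too. Of all genes, 14.9% were called lower and 8.12% higher in this average, 23% together. The share of higher among called genes was 35.3%, against 61.2% with trimmed means and 59.1% with medians of ratios. None of these 3 averages was called without the first B16 WT pool, the second B16 WT pool or the second B16 KO pool, and 1 was called without either LLC KO pool. With trimmed mean scaling, *Ier2* just missed the threshold (adjusted p = 0.0534).

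The last comparison set LLC against B16 tumors, averaged over hosts. *Egr3*, *Jun*, *Egr1*, *Junb*, *Fosb* and *Atf3* were higher in LLC, and *Ier3* and *Fos* were lower. Among all genes, 39.9% were called higher in LLC and 37.7% lower, 77.5% together, so that 8 of 10 is near the background. *Egr3* ranged from 0.45 to 1.05 RPM in B16 and from 5 to 6.8 RPM in LLC pools, 6.99 times as much, with a log2 difference of 2.27 (SE 0.15, limma adjusted p = 3.22e-06). *Jun* went from 45.6 ± 6.23 to 160 ± 19.1 RPM (SD, n = 4), a log2 difference of 1.81 (SE 0.06, limma adjusted p = 1.06e-07). *Egr1* and *Junb* were 2.29 and 2.05 times as high in LLC, with log2 differences of 1.12 and 1.01. *Fosb* and *Atf3* differed by 0.62 and 0.26 on the log2 scale. For these 6 genes every LLC pool was above every B16 pool, an order found in 32.2% of all genes.

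*Ier3* was the only member with every LLC pool below every B16 pool, 30.2% of all genes having this order. Its mean was 286 ± 19.1 RPM in B16 and 151 ± 71.1 RPM in LLC (SD, n = 4), a log2 difference of -1.06 (SE 0.14, limma adjusted p = 0.000164). The distance was wider in WT hosts, where LLC pools were at 112.45 and 69.8 RPM, than in KO hosts. *Fos* was at 51.8 ± 6.07 RPM in B16 and 37.3 ± 8.38 RPM in LLC, with overlap and a log2 difference of -0.49 (limma adjusted p = 0.0222). *Fos* therefore went the opposite way to its partner *Jun*. *Fos* was no longer called without the first B16 WT, the first B16 KO, the second LLC WT or the second LLC KO pool, and *Fosb* without any one of 6 pools, all but the first B16 KO and the second LLC KO pools. Both were also lost without the filter on low values (limma adjusted p = 0.0631 and 0.0835). *Ier2* (0.08) and *Egr2* (-0.37) did not pass, although *Ier2* did without the first B16 KO pool (0.18, limma adjusted p = 0.0388) and *Egr2* without the second LLC KO pool (-0.60, adjusted p = 0.0294).

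**Figure D4:**
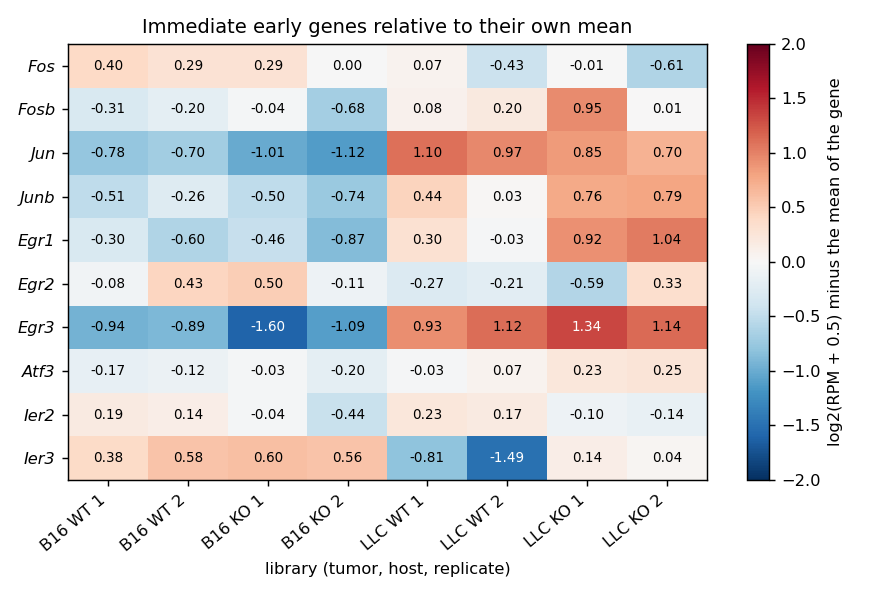
Log2(RPM + 0.5) of each gene in each library minus the mean of that gene, with red for above and blue for below. *Jun*, *Egr3* and *Junb* are above their mean in all 4 LLC libraries and *Egr1* in 3 of them (-0.03 in the second LLC WT pool), while *Ier3* is below its mean only in the LLC WT libraries, at -0.81 and -1.49.

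Genes around these factors were followed by list in the LLC comparison of hosts, for which 15.1% of all genes were called higher and 23.1% lower. Of 12 other AP-1 family genes, 4 rose and 2 fell. *Atf7* went from 71.75 and 69.25 RPM to 124.75 and 120.4 RPM (log2 difference 0.79, limma adjusted p = 0.00107) and *Maff*, a small Maf protein, from 21.8 and 15.5 RPM to 45.8 and 46.9 RPM (1.31, adjusted p = 0.0013), while on the log2 scale *Atf2* rose by 0.38 and *Jdp2*, a repressor of AP-1, fell by 0.31. Of 32 other immediate early genes, 8 rose and 3 fell. On the log2 scale, *Sik1*, a kinase induced by cAMP, rose by 1.01, *Klf6* by 0.44 and *Zfp36l2*, a messenger decay factor, by 0.43, whereas *Klf2*, an endothelial flow-responsive factor, fell by 1.07. Of 10 genes induced by ERK signaling, most of them feedback inhibitors of it, 4 rose and 1 fell. *Spry1* went from 5.2 and 5.1 RPM to 14.25 and 12.8 RPM (1.31, adjusted p = 0.000924), and *Spry2*, *Spred1* and *Dusp4* rose by 0.90, 0.72 and 0.89 on the log2 scale.

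Of 8 AP-1 target genes, 3 rose and 2 fell. *Plau*, the urokinase gene, went from 199 and 176.75 RPM to 440.05 and 443.9 RPM (log2 difference 1.23, limma adjusted p = 0.00156) and the protease *Mmp3* from 175.05 and 94.5 RPM to 589.2 and 433.8 RPM. *Mmp10* rose by 1.94 on the log2 scale. The protease *Mmp9* moved the other way, from 89.1 and 112.15 RPM to 25.85 and 24 RPM (-1.98, adjusted p = 0.000483). Serum response factor and its cofactors, upstream of many immediate early genes, gave 0 of 6 higher and 1 lower, *Mkl1* (-0.43). The 2 tested Egr corepressors, *Nab1* and *Nab2*, did not pass. In B16 tumors, none of the genes in these lists was called between hosts, as no gene tested was, so that this says nothing particular to the lists. Between tumor lines, the Fos relative *Fosl1* was at 2.45 to 3.8 RPM in B16 and 88.85 to 146.85 RPM in LLC (log2 difference 5.13, limma adjusted p = 4.42e-08). Of the 12 other AP-1 family genes, 5 were higher in LLC and 2 lower, against 39.9% and 37.7% of all genes. Of the 32 other immediate early genes, 22 were higher in LLC and 4 lower. Among the lower was the nuclear receptor *Nr4a3*, at 85.45 to 102.75 RPM in B16 and 2.85 to 4.85 RPM in LLC. *Socs3*, *Zfp36l2* and *Rhob* were higher in LLC, by 2.15, 1.96 and 1.54 on the log2 scale.

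Other features moved with the same groups. Of all genes, 15.1% were called higher and 23.1% lower between hosts in LLC. The shares between tumor lines were 39.9% higher in LLC and 37.7% lower. In LLC, 12 of 12 hypoxia genes rose in KO hosts, among them *Adm*, *Ndrg1*, *Bnip3* and *Slc2a1*, their summed level going from 4381 and 4189 RPM to 8301 and 8621 RPM. In B16, where no gene tested was called, it went from 14325 and 14133 RPM to 16500 and 16238 RPM with 0 of 12 called. Endothelial markers went the other way, with 8 of 9 lower in LLC KO hosts. Their sum was 280.4 and 229.95 RPM in LLC WT pools and 17.65 and 80.1 RPM in LLC KO pools, and in B16 it was 171.05 and 125.85 RPM, then 59.35 and 51.7 RPM. Of 7 mural cell markers, 3 were lower in LLC KO hosts, with sums of 243.2 and 200.6 RPM in WT pools and 28.8 and 105.8 RPM in KO pools. In B16 the mural sums were 156.8 and 95.35 RPM, then 45.15 and 38.35 RPM, with 0 called, as for all genes. All 4 tested T cell markers of 7 were lower in LLC KO hosts, the sums of the 7 being 13.2 and 10.05 RPM, then 0.95 and 2.7 RPM, with *Cd3d*, *Cd3e*, *Cd8a* and *Trac* at 0 in the first KO pool. Neutrophil markers summed to 183.05 and 111.4 RPM in LLC WT pools and to 174.6 and 160.25 RPM in LLC KO pools, with 0 of 5 higher and 1 lower. Fibroblast and macrophage markers gave 0 of 6 higher and 1 lower, and 1 of 7 higher and 1 lower. Between tumor lines, 6 of 6 fibroblast markers were higher in LLC, with sums of 1106 to 2067 RPM in B16 and 18785 to 36243 RPM in LLC pools. So were 7 of 7 macrophage markers, with sums of 789.8 to 1238 RPM and 2277 to 2874 RPM, and 4 of 5 neutrophil markers, with sums of 24 to 40.15 RPM and 111.4 to 183.05 RPM. The part of these features in the values of the 10 genes, between hosts or between tumors, was not tested.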

How the data were processed

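RNA of 8 tumor pools was made into TruSeq libraries and sequenced in pairs. Per the study's methods, alignment to GRCm38.p4/mm10 used STAR and gene counting used HTSeq, after Trimmomatic per the submitters' processing notes. Versions are not given in the sources used here. The deposited values, entered as a score, are gene counts that the authors scaled to 20 M reads per library and rounded to whole numbers. They were divided by 20 to give RPM, and depth was estimated from the spacing of low values. This estimate was tested on simulated data rounded to the nearest whole number (largest error 0.0157%). For both LLC WT pools and the first LLC KO pool, rounding up fitted best, a setting that was not simulated. The deposited values summed to 20.0108 and 20.0110 M in the LLC WT pools, but to 20.0005 M in the first LLC KO pool. The rounding of that KO pool is therefore uncertain.

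Groups were taken from the labels. limma 3.58.1 in R 4.3.3 was run with a trend on log2(RPM + 0.5), so that fold changes of low genes are understated. A single model held the 4 groups, for genes with at least 1 RPM in 2 libraries, with Benjamini-Hochberg adjustment at 0.05 over 14706 genes. Folds of means are ratios of RPM. As the tumors were pooled, p-values measure the spread between pools only. limma was also tested on simulated data in which far fewer genes changed than were called in LLC, so no support is drawn from that test.

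The members and lists were chosen with earlier results of these data known. All 10 members are named. From each list, up to 4 genes with the smallest p between hosts in LLC and up to 4 between tumors could be named, of which a selection is described, and the 5 genes closest to the mean profile. Positions come from GENCODE vM21 and windows from RefSeq. Pseudocounts, filters, scalings, each tumor alone, a replicate block and leaving out each library were tried.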

Additional observations from a re-analysis of the deposited data

Results flagged for a closer look

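The difference between hosts was not the same in both tumors for 3 of the 10 genes, by a limma test of the difference itself. In LLC, host genotype cannot be told apart from the sex of the mice or the stock of grafted cells, and the same limit holds here. The effect in LLC minus that in B16 was 1.14 for *Ier3*, 1.05 for *Egr1* and 0.78 for *Junb* on the log2 scale. Of all genes, 8.15% were called in this direction and 15.2% in either. None of the 3 calls held without the filter on low values, or without either B16 WT, either B16 KO or either LLC KO pool. All 3 genes had both LLC KO pools above both LLC WT pools, and overlapping hosts in B16. The calls rest on these same values, so that this order adds no support. Of all genes, 27.6% had both LLC KO pools above both LLC WT pools.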

How the results depend on the processing

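Between hosts in LLC, 4 of the 10 genes were called, 2 without the filter on low values, 2 with each tumor fitted alone, and 1 to 4 with 1 library left out. Averaged over tumors, 3 were called, 1 without the filter and 0 to 3 with 1 library left out. For the difference of host effects, 3 were called, 0 without the filter and 0 to 3 with 1 library left out. Without *Ier2* and *Ier3*, the median log2 difference between tumors was 0.81 in place of 0.44. With a replicate block, 4 genes were called in LLC, 0 in B16 and 3 in the average, and *Junb* was lost from the difference (0.78, limma adjusted p = 0.0680). Same-numbered pools did not deviate together (r = 0.058 in B16 and -0.030 in LLC, over genes), so the numbers were not taken as pairs. Some uncalled differences changed sign with 1 library left out. The log2 difference between hosts in LLC went from -0.42 to 0.17 for *Fos*, -0.13 to 0.81 for *Fosb* and -0.35 to 0.57 for *Egr2*. The log2 difference between hosts in B16 went from -0.28 to 0.32 for *Egr2*, -0.055 to 0.11 for *Atf3* and -0.42 to 0.21 for *Fosb*. The log2 difference averaged over tumors went from -0.17 to 0.30 for *Egr2*, -0.12 to 0.35 for *Fosb* and -0.23 to 0.020 for *Egr3*. The log2 difference for the difference of host effects went from -0.37 to 0.55 for *Egr2*, -0.22 to 0.38 for *Fos*, -0.12 to 0.28 for *Ier2*, -0.0095 to 0.14 for *Jun* and -0.027 to 0.91 for *Fosb*. The log2 difference between tumors went from -0.020 to 0.18 for *Ier2*. Over all genes, calls in LLC fell from 5628 to 2170 with the tumor fitted alone, those in the average from 3386 to 1655 and those of the difference from 2236 to 795 without the filter. With 1 library left out, these 3 counts ranged from 2681 to 5653, from 814 to 4092 and from 316 to 3651. The cause of these changes was not tested. With 2 pools a group, small differences could not be detected.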

Other observations

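Of 10 heat shock genes, 3 rose and 1 fell in LLC tumors of KO hosts, where 15.1% of all genes were called higher and 23.1% lower, 38.3% together, so that 4 of 10 is near the background. The inducible chaperone *Hspa1b* was at 8.8 and 9.25 RPM in WT hosts and at 48.9 and 26.15 RPM in KO hosts (log2 difference 1.93, limma adjusted p = 0.00224), and at 7.8 to 9.55 RPM in B16 pools. On the log2 scale, *Dnajb1* rose by 0.55 and *Hspa1a* by 1.18, and *Bag3* fell by 0.38. Of 10 integrated stress response genes, 3 rose and 3 fell, against the same background of 15.1% and 23.1%. On the log2 scale, *Ddit4*, an inhibitor of mTORC1, rose by 0.79, *Nupr1* by 0.51 and *Ddit3*, the CHOP factor, by 0.77, whereas *Asns*, asparagine synthetase, fell by 0.55.

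Over the 8 libraries, the genes closest to the mean profile of the 10 members were *Fbxl5*, *Klf16*, *Rpl34*, *Rps3a1* and *Fam118a*, with a root mean square log2 distance of 0.047 to 0.071. The members themselves lay at 0.17 (*Atf3*) to 0.90 (*Egr3*) from their own mean. *Fbxl5* was at 62 to 77.25 RPM in B16 and 89.9 to 108.3 RPM in LLC pools.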
